A study of Mus musculus with 6 samples.

Results

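The 10 genes described here belong to the machinery of the G1 phase of the cell cycle and were measured in HoxB8 neutrophil progenitors: the cyclins Ccnd2, Ccnd3, Ccne1 and Ccne2, the kinase Cdk6, and the cyclin-dependent kinase inhibitors Cdkn1a, Cdkn1b, Cdkn1c, Cdkn2c and Cdkn2d. They were chosen by gene symbol in the array's annotation, and each of the 10 had 1 probe set, out of 19572 probe sets with a symbol and 22206 in all. Total RNA was hybridised to Affymetrix Mouse Clariom S arrays, which carry probe sets along the transcript of each gene. Mouse progenitors kept immature by the transcription factor Hoxb8 had spent 1 day in differentiation medium with serum and stem cell factor supernatant. In the WT group (3 arrays) the cells expressed the wild-type form of C/EBPα, the transcription factor that drives granulocyte formation. In the K313 group (3 arrays) they expressed the leukaemia-associated K313 form, and the study asks how this form changes C/EBPα activity. All 6 samples share the HoxB8 background and the day of differentiation. The sources used here do not say whether replicates were separate cultures or whether either group is 1 clone. The p-values therefore rest on the spread between these arrays, which may be technical only.

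A cell in G1 commits to DNA replication when D-type cyclins with CDK4 or CDK6, and then E-type cyclins with CDK2, phosphorylate the retinoblastoma protein and release E2F factors. The CIP/KIP inhibitors p21, p27 and p57 (Cdkn1a, Cdkn1b and Cdkn1c) bind cyclin-CDK complexes, and the INK4 inhibitors p18 and p19 (Cdkn2c and Cdkn2d) block CDK4 and CDK6. In the myeloid lineage precursors divide while they mature and leave the cell cycle before they become neutrophils, and C/EBPα is known to slow growth as well as to direct differentiation.

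Of the 10 genes, 3 fell and 1 rose in K313 with limma at an adjusted p below 0.05. Cdkn1a, Ccnd3 and Cdkn2d were lower and Ccne1 was higher. Across all probe sets 7.75% passed in either direction, 3.77% higher and 3.97% lower. The groups did not overlap in these same 4 genes and in 21.9% of all probe sets. The median log2 change of the 10 genes was -0.03, and that of all probe sets 0.02. The 10 genes were chosen by function and with earlier results of these data known. These shares are therefore only a description, and no test of the group was made. Without WT replicate 3, 2 of the 10 passed, Cdkn1a lower and Ccne1 higher, where 6.47% of all probe sets did, 3.42% higher and 3.05% lower.

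WT replicate 3 stood apart from the other WT arrays, most visibly in Y-linked transcripts. The Y-linked gene Eif2s3y, a translation initiation factor subunit, read 3.11, 2.93 and 7.03 in WT replicates 1 to 3 and 12.37, 12.09 and 12.24 in K313. The groups thus differed in Y-linked transcripts as well as in the C/EBPα form, and the labels do not give the sex of the cells. Hoxb8 itself was lower in K313 by -4.64 ± 0.25 (log2, SE, n = 3 per group; adjusted p = 1.15e-06 with limma). Cebpa read 14.35 to 14.85 in WT and 13.85 to 14.45 in K313, and the 2 ranges overlapped. How much the Hoxb8 and Y-linked differences add to the changes below was not tested, and the design confounds them with the form of C/EBPα, so the 2 cannot be told apart.

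**Figure D1:**
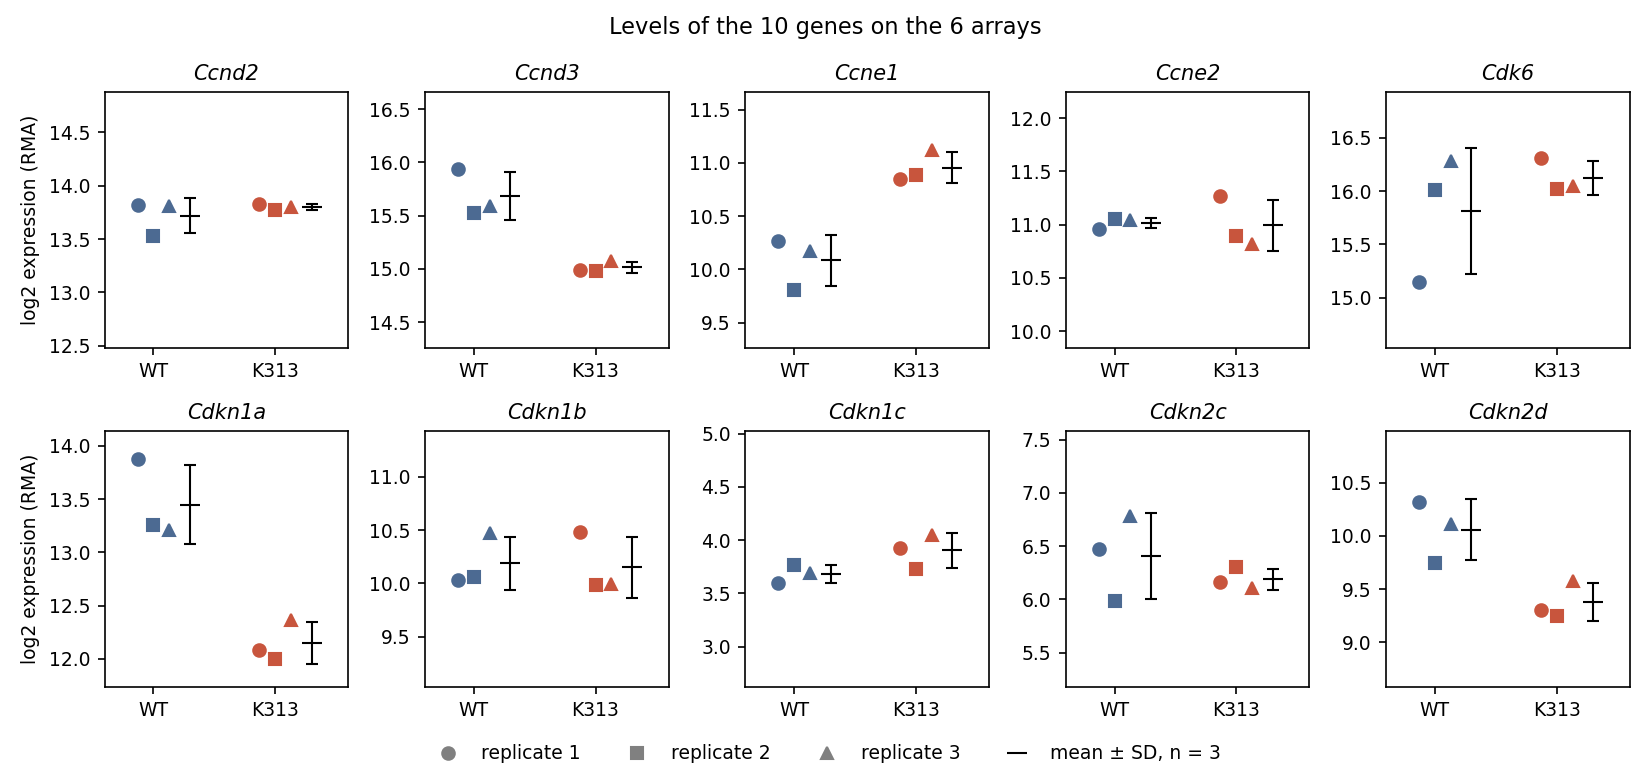
Log2 expression of the 10 genes on each array, with 1 panel per gene, each spanning the same number of log2 units around its own level. Symbols mark the replicates and the black bar the mean ± SD of 3 arrays; Cdkn1a, Ccnd3 and Cdkn2d are lower on all 3 K313 arrays than on any WT array, Ccne1 is higher on all 3, and the other 6 genes overlap.

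The promoter sequences of the 4 genes that passed are shown because these are the genes whose level differed between the groups. Each is the 250 bases before a RefSeq gene start in build GRCm38.p6, read 5′ to 3′ on the gene's strand, and capitals mark the GC-box letters GGGCGG or their reverse CCGCCC. For Cdkn1a and Ccnd3, which have 2 listed starts each, the window richer in G and C was taken.
Cdkn1a (chr17:29093519-29093768, plus strand): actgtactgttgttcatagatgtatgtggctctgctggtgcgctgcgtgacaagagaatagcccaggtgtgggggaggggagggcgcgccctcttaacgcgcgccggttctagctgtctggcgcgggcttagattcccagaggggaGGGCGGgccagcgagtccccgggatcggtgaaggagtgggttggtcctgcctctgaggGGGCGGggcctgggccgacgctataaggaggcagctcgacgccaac
Cdkn2d (chr9:21291210-21291459, minus strand): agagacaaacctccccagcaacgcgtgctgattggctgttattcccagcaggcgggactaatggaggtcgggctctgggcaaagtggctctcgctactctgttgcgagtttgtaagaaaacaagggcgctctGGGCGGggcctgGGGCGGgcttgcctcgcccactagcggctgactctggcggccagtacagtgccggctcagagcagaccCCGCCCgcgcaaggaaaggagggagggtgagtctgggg
Ccnd3 (chr17:47593217-47593466, plus strand): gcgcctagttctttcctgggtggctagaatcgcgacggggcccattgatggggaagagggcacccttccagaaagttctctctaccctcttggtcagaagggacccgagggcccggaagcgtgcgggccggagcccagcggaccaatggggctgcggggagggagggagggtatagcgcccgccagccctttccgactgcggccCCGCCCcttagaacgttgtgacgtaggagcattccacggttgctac
Ccne1 (chr7:38107491-38107740, minus strand): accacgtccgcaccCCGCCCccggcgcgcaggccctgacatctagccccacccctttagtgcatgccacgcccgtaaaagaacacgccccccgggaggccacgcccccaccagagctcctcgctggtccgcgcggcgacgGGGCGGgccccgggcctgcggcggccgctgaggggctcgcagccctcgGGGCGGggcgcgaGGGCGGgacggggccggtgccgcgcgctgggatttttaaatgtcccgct

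RefSeq's promoter table matched 7 of the 10 genes, with 10 windows. Ccnd2, Ccne2 and Cdkn1c had none. GC-box letters were in 7 of the 10 windows and in 32.7% of 32851 windows of the same length. The 7 include windows of Cdkn1b and Cdkn2c, which did not pass, so these letters do not set apart the genes that passed. The Ccne1 window holds 4 of them and is 76.0% G and C, the Cdkn2d window holds 3 at 63.6%, the Cdkn1a window 2 at 64.8% and the Ccnd3 window 1 at 64.8%, where the median window is 52.4%. The other window of Ccnd3 holds 2 at 59.6%, and that of Cdkn1a 0 at 54.0%. For these 2 genes the window shown was taken for its G and C, so its share is high by that choice. The C/EBP letters TTGCNNAA, on both strands, were in 0 of the 10 windows and in 9.56% of all. The E2F letters TTTCCCGC, TTTGGCGC, TTTGCCGC and TTTCGCGC were in 0 of the 10 and in 1.86% of all. Cdk6 had the E-box letters CACGTG, found in 6.02% of all windows, beginning 220 bases before its start. No matched letters of different motifs overlapped in these windows. A match is a description of letters, and its absence says only that these letters are not in this window.

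Cdkn1a encodes p21, the inhibitor that p53 induces and that holds CDK2 complexes in check. Its log2 level was 13.88, 13.26 and 13.21 in WT replicates 1 to 3 and 12.08, 12.00 and 12.37 in K313. Every K313 array lay at least 0.84 log2 units below every WT array, and WT replicate 1 was the highest. The change was -1.30 ± 0.21 (SE, n = 3 per group; adjusted p = 0.00194 with limma), a linear level 2.46-fold lower in K313. Its 95% interval, before adjustment as for the intervals that follow, was -1.75 to -0.85. It was the largest change among the 10 genes. Cdkn1a passed in 12 of 13 alternative settings, with changes from -1.42 to -1.09. Without WT replicate 3 its change was -1.42 (adjusted p = 0.00377). It missed the threshold with the ordinary variance of each probe set (adjusted p = 0.115).

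Cdkn1b encodes p27, which binds cyclin E and cyclin D complexes and builds up as cells leave the cycle. It read 10.03, 10.06 and 10.47 in WT and 10.48, 9.98 and 9.99 in K313. The highest arrays, WT replicate 3 and K313 replicate 1, were alike, and the groups overlapped. The change was -0.04 ± 0.20 (SE; limma adjusted p = 0.959), with a 95% interval of -0.47 to 0.39. Cdkn1c, an imprinted gene that encodes p57, read 3.60 to 3.77 in WT and 3.73 to 4.05 in K313. The group means of 1091 olfactory receptor probe sets, taken as a guide to the low end of the array, had a median of 3.52 and a 95th percentile of 4.68. Cdkn1c therefore could not be told from background in either group.

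The INK4 gene Cdkn2d, which encodes p19, read 10.32, 9.75 and 10.11 in WT and 9.30, 9.25 and 9.58 in K313. The groups did not overlap, but the gap between WT replicate 2 and K313 replicate 3 was 0.17, less than the range of 0.57 within WT. The change was -0.68 ± 0.19 (SE, n = 3 per group; adjusted p = 0.0494 with limma; interval -1.09 to -0.27), a linear level 1.61-fold lower in K313. This call sat at the threshold. It was lost when WT replicate 1 (adjusted p = 0.160) or 3 (0.136) was left out, or any K313 replicate (0.142, 0.180 and 0.0611 for 1 to 3), and with quantile normalization (0.0545), an intensity trend with robust prior (0.0568) or ordinary variance (0.238). The change kept its sign in all of these, between -0.84 and -0.55 over the 13 alternatives.

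Cdkn2c, which encodes p18, read 6.47, 5.98 and 6.78 in WT and 6.16, 6.30 and 6.11 in K313. The K313 arrays lay inside the WT range. The change was -0.22 ± 0.20 (SE; limma adjusted p = 0.676; 95% interval -0.67 to 0.23). Without WT replicate 3, the highest array, it was -0.04.

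Among the D-type cyclins, which pair with CDK4 and CDK6 and carry growth factor signals into the cycle, Ccnd3 fell. It read 15.94, 15.52 and 15.59 in WT and 14.99, 14.98 and 15.07 in K313. The 3 K313 arrays lay within 0.09 of each other and 0.45 below the lowest WT array. The change was -0.67 ± 0.16 (SE, n = 3 per group; adjusted p = 0.0293 with limma; interval -1.03 to -0.31), a linear level 1.59-fold lower in K313. The call was lost when WT replicate 1 (adjusted p = 0.102) or 3 (0.0583) was left out, or any K313 replicate (0.0871, 0.107 and 0.0727 for 1 to 3), and with ordinary variance (0.127). The 13 alternatives put the change between -0.75 and -0.54.

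Ccnd2 read 13.82, 13.53 and 13.81 in WT and 13.83, 13.77 and 13.80 in K313. WT replicate 2 was the lowest, and the other 5 arrays lay close together. The change was 0.08 ± 0.15 (SE; limma adjusted p = 0.868), with a 95% interval of -0.26 to 0.42. Cdk6, the kinase partner of these cyclins, read 15.15, 16.01 and 16.28 in WT and 16.31, 16.02 and 16.05 in K313. WT replicate 1 was low, and the other 2 WT arrays lay within or beside the K313 range. Its WT range of 1.13 was the widest among the 10 genes. The change was 0.31 ± 0.26 (SE; limma adjusted p = 0.621; 95% interval -0.26 to 0.88), and it moved to -0.02 without WT replicate 1 and to 0.55 without WT replicate 3.

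Ccne1, a cyclin that activates CDK2 at the entry to S phase, rose. It read 10.27, 9.81 and 10.17 in WT and 10.85, 10.89 and 11.12 in K313. The lowest K313 array was 0.58 above the highest WT array. The change was 0.87 ± 0.17 (SE, n = 3 per group; adjusted p = 0.00920 with limma; interval 0.49 to 1.25), a linear level 1.83-fold higher in K313. Ccne1 passed in 12 of 13 alternative settings and missed the threshold with ordinary variance (adjusted p = 0.116). Without WT replicate 3 the change was 0.91 (adjusted p = 0.0245). Its paralog Ccne2 read 10.96, 11.05 and 11.04 in WT and 11.27, 10.89 and 10.82 in K313. K313 replicate 1 was the highest of the 6 and the other K313 arrays the lowest. The Ccne2 change was -0.02 ± 0.17 (SE; limma adjusted p = 0.971; 95% interval -0.39 to 0.35).

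**Figure D2:**
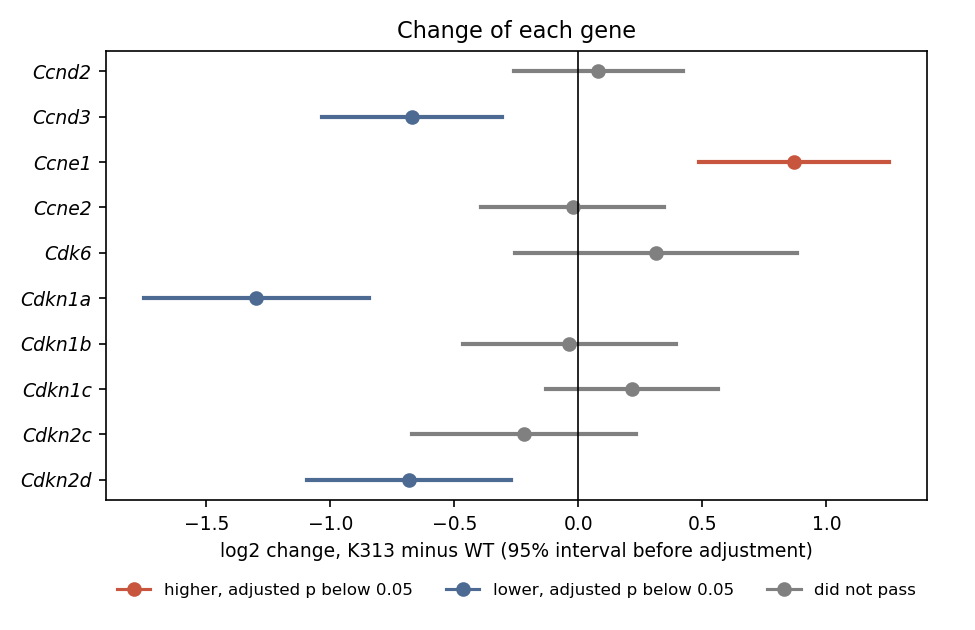
Log2 change of each gene, K313 minus WT, with its 95% interval before adjustment from the limma fit on 3 arrays per group. Cdkn1a, at -1.30, lies farthest from 0, Ccnd3 and Cdkn2d lie near -0.7, Ccne1 lies at 0.87, and the intervals of the other 6 genes include 0.

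Paralogs were compared in 4 pairs by the difference of their changes within arrays. The pairs were chosen after the values were seen. The Ccne1 change exceeded that of Ccne2 by 0.89, the Ccnd3 change lay below that of Ccnd2 at -0.75, and the Cdkn1a change lay below that of Cdkn1b at -1.26. In each of these 3 pairs the within-array difference did not overlap between the groups (exact permutation test over the arrays, two-sided p = 0.10, the smallest that 3 against 3 allows, and 0.133 adjusted over the 4 pairs). Cdkn2d against Cdkn2c differed by -0.46 (exact p = 0.20, adjusted 0.20), and there the groups overlapped. None of the 4 comparisons could reach 0.05 in this design.

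In the 3 genes that fell, Cdkn1a, Ccnd3 and Cdkn2d, WT replicate 1 was the highest array and K313 replicate 3 the highest of its group. WT replicate 2 lay above WT replicate 3 in Cdkn1a and below it in Ccnd3 and Cdkn2d. How often other probe sets share these positions was not tested. WT replicate 2 was the lowest of the 6 arrays in Ccne1, Ccnd2 and Cdkn2c. On the log2 scale WT replicate 3 lay 25.4% of the way from the mean of the other WT arrays to the K313 mean in Cdkn1a, 19.5% in Ccnd3 and 14.2% in Ccne1. In Cdkn2d it lay on the far side, at -11.4%. WT replicate 3 lay between WT replicates 1 and 2 in Ccnd3, Ccne1 and Cdkn2d, and in Cdkn1a it read 13.21 beside 13.26 in WT replicate 2. In these 4 genes the percentages therefore do not set it apart from the other WT arrays. Within WT the median SD of the 10 genes was 0.24, beside 0.20 over all probe sets, and within K313 it was 0.16, beside 0.19.

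**Figure D3:**
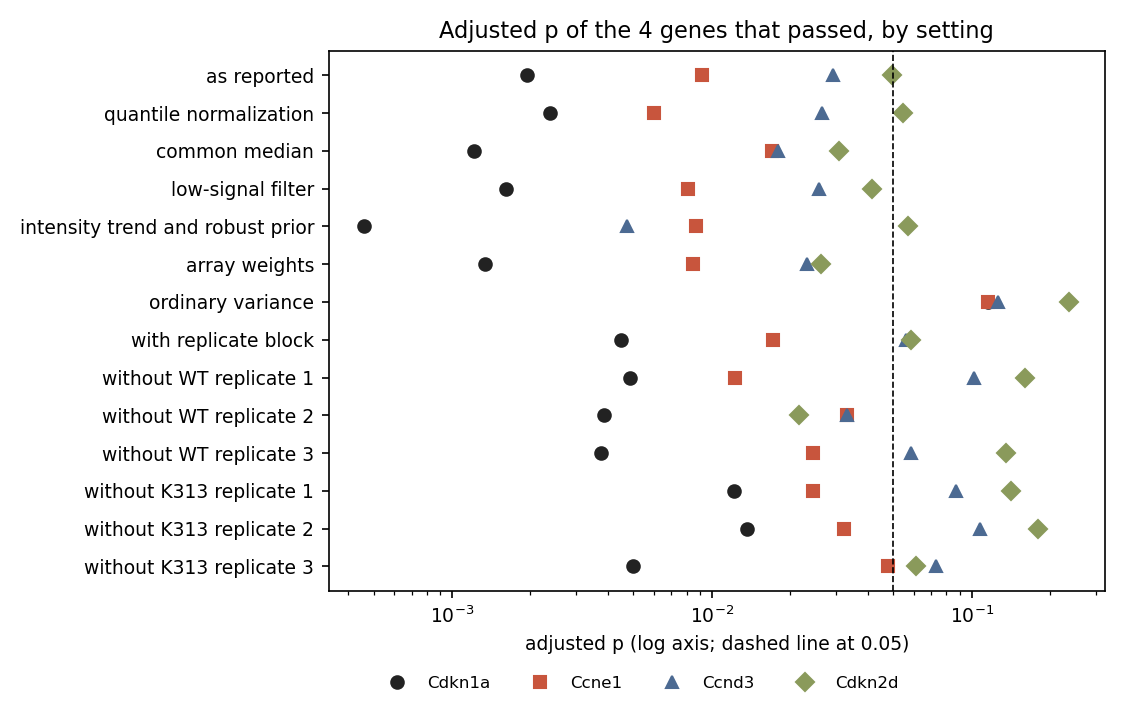
Adjusted p of the 4 genes that passed, on a log axis, under the reported fit and 13 alternatives, with the threshold of 0.05 dashed. Cdkn1a and Ccne1 stay left of the line except with ordinary variance, while Ccnd3 and Cdkn2d cross it in most fits that leave out an array.

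The profiles most like those of the 4 genes were found among 17174 other probe sets with a symbol, by the mean absolute difference over the 6 arrays after each profile was centred on its mean. For Cdkn1a they were B4galnt1 (0.09 log2 units), a glycosphingolipid synthase, Ttyh3 (0.10) and Sik1 (0.11), a salt-inducible kinase. For Ccnd3 they were Atxn10 (0.05), Ubxn4 (0.05) and Pbx2 (0.05), a homeobox partner of Hox factors. For Cdkn2d they were Cpt2 (0.05), a mitochondrial fatty acid enzyme, Tada3 (0.06) and Fbxo46 (0.06). For Ccne1 they were Chchd5 (0.06), Atp10d (0.07) and the ribokinase Rbks (0.07).

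Around these 10 genes, 45 further G1 genes were listed and 43 were measured, on 44 probe sets. With limma 2 fell, 0 rose and 42 did not pass, and the median change was -0.13. The share that passed was below the 7.75% of all probe sets. In the limma fit 3960 of all 22206 probe sets had an unadjusted p below 0.05, and the list counts at that level stand beside this share. None of the 5 other cyclins and kinases passed (at an unadjusted p below 0.05, 0 of 5). Ccnd1, another D-type cyclin, had no probe set under its symbol. Cdk4, the other partner of D-type cyclins, read 16.18 to 16.24 in WT and 16.09 to 16.33 in K313. Cdk2, the partner of cyclin E, differed by -0.34 ± 0.19 (limma adjusted p = 0.412), and Cdc25a, the phosphatase that activates it, by 0.22 ± 0.16 (0.567). Ccna1 was at the low end in both groups.

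Among the other inhibitors 0 of 3 passed with limma (2 lower at an unadjusted p below 0.05). Cdkn3, a phosphatase that acts on CDK2, differed by -0.41 ± 0.15 (adjusted p = 0.142, and 0.0493 with ordinary variance). The INK4 genes Cdkn2a (3.35 in WT and 2.70 in K313) and Cdkn2b (3.61 and 3.49) were at the low end in both groups. Without WT replicate 2 Cdkn2a passed, at -0.95 (adjusted p = 0.0111). Of the CDK-activating kinase, which phosphorylates CDKs, its assembly factor Mnat1 fell by 0.68 ± 0.15 on the log2 scale (limma adjusted p = 0.0189). Mnat1 missed the threshold when WT replicate 1 (0.0645) or 3 (0.0700) or K313 replicate 2 (0.0665) or 3 (0.0759) was left out, and with ordinary variance (0.0616). Its partners Cdk7 (-0.30 ± 0.17) and Ccnh (0.22 ± 0.16) did not pass.

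Of 10 genes for the turnover of cyclins and inhibitors, such as the ubiquitin ligase subunits Skp2 and Fbxw7, 0 passed with limma (1 higher and 1 lower at an unadjusted p below 0.05). Ambra1, an adaptor for the destruction of D-type cyclins, came nearest at -0.57 ± 0.17 (adjusted p = 0.0692), and passed with a common median (0.0496) and with the intensity trend (0.0416). The pocket protein and E2F list had 0 of 11 probe sets past the threshold (2 lower at an unadjusted p below 0.05). Its smallest p were those of the pocket protein Rbl2 (-0.63 ± 0.26, adjusted p = 0.231), E2f2 (-0.48 ± 0.21, 0.277) and the E2F partner Tfdp1 (0.33 ± 0.16, 0.320). Of 12 upstream factors 1 passed with limma (1 higher and 5 lower at an unadjusted p below 0.05). Smad3, which carries TGF-β signals that arrest growth, fell by 1.13 ± 0.15 on the log2 scale (adjusted p = 0.000533). It read 10.07, 10.29 and 10.18 in WT and 9.09, 9.02 and 9.05 in K313. Bmi1, a Polycomb repressor of the Cdkn2a locus, differed by -0.57 ± 0.17 (0.0693; 0.0440 with a common median and 0.0433 with array weights), and Zbtb17, which acts with Myc at Cdkn1a, by -0.46 ± 0.15 (0.102).

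Genes of replication and mitosis, the readout of cycling cells, had 0 of 18 past the threshold with limma (1 higher at an unadjusted p below 0.05) and a median change of 0.01. Aurka, a mitotic kinase, differed by 0.45 ± 0.18 (adjusted p = 0.199), the replicative helicase subunit Mcm3 by 0.30 ± 0.18 (0.459) and the thymidylate synthase Tyms by -0.25 ± 0.16 (0.496). The mean log2 level over the 18 genes was 13.93 to 14.04 in WT and 13.93 to 14.05 in K313, ranges that overlap. This list had 0 passing genes with ordinary variance and in the 6 fits that leave out an array too.

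Beside Cdkn1a, 19 other p53 targets were read, and 3 fell and 0 rose with limma (6 lower and 0 higher at an unadjusted p below 0.05), with a median of -0.08. Of all probe sets 3.97% passed as lower, and 3960 of 22206 had an unadjusted p below 0.05 in either direction. Phlda3, Btg2, Sesn2, Eda2r and Plk2 were at the low end in both groups, and Btg2 was among the 6. Trp53, which encodes p53, had no probe set under its symbol. Trp53inp1, a stress protein of the p53 pathway, fell by 1.99 ± 0.22 on the log2 scale (adjusted p = 0.000149), Perp, a membrane protein, fell by 1.69 ± 0.17 (7.74e-05) and Ddb2, a DNA damage sensor, fell by 0.74 ± 0.16 (0.0173). Ddb2 missed the threshold when WT replicate 2 (0.0593) or 3 (0.0533) or K313 replicate 1 (0.0512) or 3 (0.0772) was left out, and with ordinary variance (0.106), as did Trp53inp1 with ordinary variance (0.0695). Mdm2, the ubiquitin ligase that limits p53, read 12.34, 12.66 and 13.60 in WT and 13.44, 13.10 and 13.38 in K313. WT replicate 3 was the highest of the 6, and the change was 0.44 ± 0.28 (adjusted p = 0.484). Without that array Mdm2 was higher by 0.81 (0.0387).

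**Figure D4:**
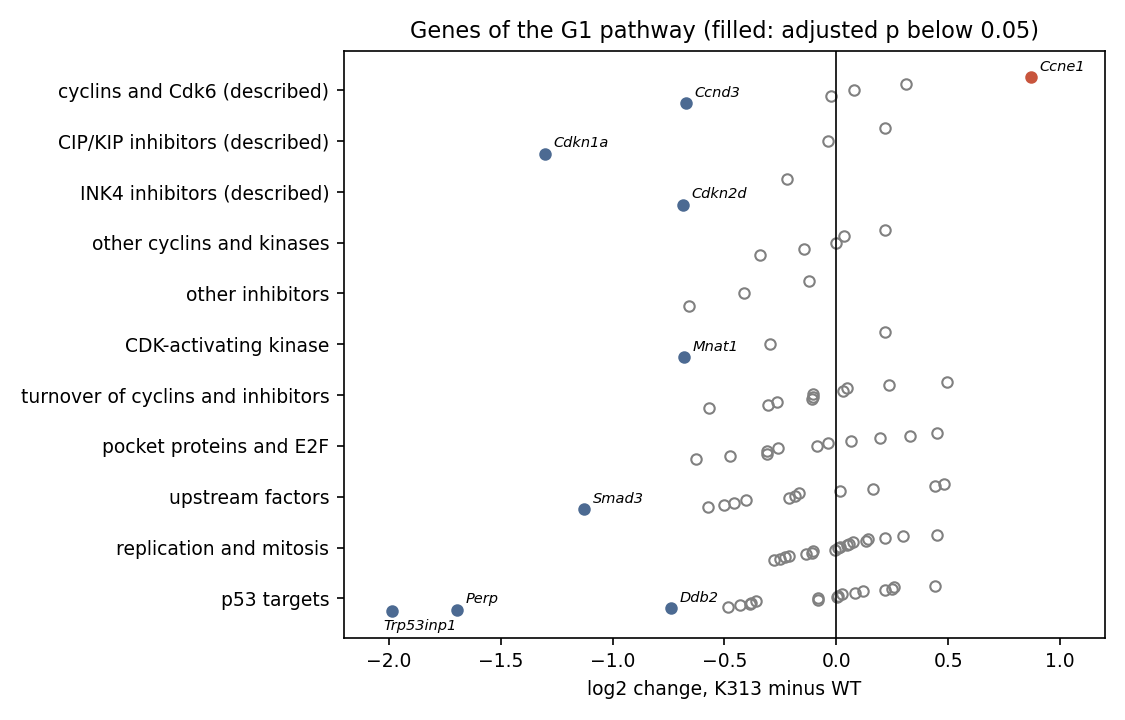
Log2 change, K313 minus WT, of each probe set of the 10 genes (the top 3 rows) and of the other G1, replication and p53 target lists, with filled points where the adjusted p was below 0.05 and the gene named. Beside the 4 described genes, Mnat1, Smad3, Trp53inp1, Perp and Ddb2 are filled, all on the lower side.

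In each list of blood lineage markers part of the genes passed, where 3.77% of all probe sets passed as higher and 3.97% as lower. Of 9 neutrophil progenitor markers 4 rose and 0 fell, and their mean log2 level was 13.11 to 13.13 in WT and 13.80 to 13.98 in K313. None of the 9 was at the low end in both groups. Elane, Ctsg and Prtn3 had the smallest p, while Mpo, the myeloperoxidase of these progenitors, read 18.41 in WT and 18.42 in K313, and Cebpe and Cd63 changed by -0.04 and -0.32 without passing. Some genes of basophils and mast cells were also well above the low end in both groups, such as Cpa3 (17.24 in WT and 16.83 in K313) and Hdc (16.74 and 16.00). Fcer1a (3.63 and 3.64) was not. Of 9 late neutrophil markers 3 rose and 1 fell (4.71 to 5.18 in WT, 5.95 to 6.87 in K313), with Ltf, Camp, Retnlg and Mmp9 at the low end in both groups. Cd14, Ms4a6c and Adgre1 had the smallest p of the monocyte and macrophage markers, and of these Adgre1 fell. The monocyte and macrophage markers rose in 3 of 7 and fell in 1 (6.71 to 7.32, then 8.20 to 8.39), with Ly86 at the low end. That count was 2 and 0 when WT replicate 2 or 3 or the second K313 array was left out, and 2 and 1 when the first WT or the third K313 array was.

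Basophil and mast cell markers fell in 5 of 9 (11.15 to 11.53, then 10.01 to 10.32), with Fcer1a at the low end. Of these Cd200r3, Cma1 and Gata2 had the smallest p. Erythroid and megakaryocyte markers fell in 3 of 6, namely Gata1, Gp9 and Itga2b (7.15 to 7.29, then 5.76 to 6.07), with Klf1 at the low end. The erythroid and megakaryocyte count was 2 without K313 replicate 1 or K313 replicate 3. Without WT replicate 1 or 3 or K313 replicate 2 or 3, 4 basophil and mast cell markers fell. Without WT replicate 1 or 3 or K313 replicate 1 or 3, 3 neutrophil progenitor markers rose. Leaving out K313 replicate 1 gave 4 late neutrophil markers that rose. Lymphoid markers fell in 3 of 7, namely Cd79b, Cd79a and Cd3g (5.46 to 5.59, then 4.45 to 4.64), with Pax5 and Cd3e at the low end. In bulk RNA fewer cells of a type and less RNA per cell cannot be told apart. With ordinary variance these counts were smaller: 1 neutrophil progenitor marker rose, 1 late neutrophil marker rose and 1 fell, 2 monocyte and macrophage markers rose and 0 fell, and 1 basophil and mast cell, 2 erythroid and megakaryocyte and 2 lymphoid markers fell. With the intensity trend and robust prior 1 late neutrophil marker rose. The part of these lineage shifts in the changes of Cdkn1a, Ccnd3, Cdkn2d and Ccne1 was not tested.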

How the data were processed

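The 10 genes and the gene lists were chosen with earlier results of these data known. The deposited values are log2 expression per probe set, made by the authors with RMA and the Transcriptome Analysis Console, per the submitters' processing notes; versions are not given in the sources used here. Because RMA equalises the arrays' distributions, the values do not show a shift in RNA content per cell, and folds near the low end are compressed. Values run from 2.21 to 18.59, and array medians from 5.01 to 5.13. No detection calls were used, arrays have no read depth, and 3 arrays per group limit the precision. No batch is named in the labels.

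The test was limma 3.58.1 (R 4.3.3), lmFit and eBayes with group as the term, two-sided; p-values were adjusted by Benjamini-Hochberg over all 22206 probe sets, with calls at 0.05. Changes are K313 minus WT. The script was tested on simulated data. Named were all 10 genes, up to 3 genes with the smallest p per list, the 3 nearest profiles of each passing gene (leaving out numbered gene models and olfactory and vomeronasal receptors), 2 measured protein-coding neighbours on each side, Cebpa and Hoxb8. Other genes were named after their values were seen: Eif2s3y, Cdk4, Ccna1, Cdkn2a, Cdkn2b, Cdk7, Ccnh, Skp2, Fbxw7 and Mdm2, the markers Mpo, Cebpe, Cd63, Cpa3, Hdc and S100a9, and those at the low end. Motifs were chosen after the calls. Alternatives were quantile normalization, a common array median, a filter on the dimmest 30% of probe sets, an intensity trend with robust prior, array weights, ordinary variance, the replicate number as a block, each array left out, and a 1.5-fold minimum. Levels of different probe sets were compared only within arrays for the paralog pairs, and with the olfactory receptor probe sets for the low end.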

Additional observations from a re-analysis of the deposited data

How the results depend on the processing

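Of 1720 probe sets that passed (838 higher and 882 lower in K313), 496 did so with ordinary variance, 247 higher and 249 lower. Leaving out 1 array gave 1228 to 1465 in all, 625 to 760 higher and 575 to 776 lower. Of the 10 genes, 4 passed as reported, 1 higher and 3 lower. With ordinary variance 0 passed, 0 higher and 0 lower. In that fit 4 had an unadjusted p below 0.05, as did 3377 of all 22206 probe sets. Leaving out 1 array gave 2 to 4, with 1 higher in each fit and 1 to 3 lower. Without WT replicate 2 the count was 4, and it was 2 without any other single array. Quantile normalization and the intensity trend with robust prior gave 3 each. A common median, the low-signal filter, array weights and a 1.5-fold minimum gave 4.

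Same-numbered replicates did not deviate together (correlations over probe sets of -0.06, 0.03 and -0.06), so the numbers do not pair the samples. With the replicate number as a block, 1546 probe sets passed and 2 of the 10 genes, 1 higher (Ccne1) and 1 lower (Cdkn1a). Ccnd3 and Cdkn2d then had adjusted p of 0.0561 and 0.0585. No called change among the 10 genes turned its sign in any alternative.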

Other observations

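The genes beside the 10 on the chromosome were read as a description, with the nearest 2 measured protein-coding genes on each side taken from RefSeq's gene order. Of 39 such neighbours, 1 rose, 1 fell and 37 did not pass with limma, beside 7.75% of all probe sets. Next to Ccne1, 1600014C10Rik read 10.44, 9.17 and 10.52 in WT and 11.82, 11.32 and 11.40 in K313, a change of 1.47 ± 0.32 (SE, n = 3 per group; adjusted p = 0.0141 with limma). WT replicate 2 was the lowest array in this gene as it was in Ccne1. The call was lost without K313 replicate 1 (adjusted p = 0.0651) and with ordinary variance (0.276). On its other side Uri1, a prefoldin-like chaperone, differed by 0.20 ± 0.20 (adjusted p = 0.712).

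Next to Ccne2, whose change was -0.02, the gene that fell was Trp53inp1, at -1.99 ± 0.22. It read 8.34, 8.60 and 9.07 in WT and 6.99, 6.36 and 6.70 in K313. Beside Cdkn1a, the splicing factor gene Srsf3 differed by -0.26 ± 0.18 (limma adjusted p = 0.528) and Stk38, a kinase, by -0.36 ± 0.16 (0.270). The 4 neighbours of Ccnd3 and the 4 of Cdkn2d did not pass either, and the nearest values were those of Tomm6 (-0.38 ± 0.26, 0.525) and Slc44a2 (-0.33 ± 0.16, 0.301). Of the 16 neighbours of the 4 genes that passed, 1 therefore passed as well.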
